A study of Mus musculus with 6 samples.

Results

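Reabsorption of filtered amino acids in the proximal tubule was followed through 10 transporter genes, matched by symbol among the 24422 genes of the count tables. The genes were Slc3a1, Slc7a9, Slc7a13, Slc6a18, Slc6a19, Slc6a20b and Slc1a1, which act at the apical (luminal) membrane, and Slc7a7, Slc7a8 and Slc16a10, which act at the basolateral (blood-facing) membrane. They were chosen by name, and all 10 were counted in every library and were given an adjusted p. Poly-A RNA came from whole kidneys of mice at postnatal day 13, with 3 Control and 3 TfR1 knockout libraries. TfR1 is the transferrin receptor, encoded by Tfrc, which brings transferrin-bound iron into cells. Knockout mice were Tfr1f/f;SixCre, in which the Six2-driven Cre recombinase acts in the progenitors of the nephron and removes exons 3 and 4 of the floxed gene. Control mice are labelled wild type, a name the study also gives elsewhere to floxed littermates without Cre, and floxed alleles in these mice were not checked here. Both groups carried the strain label C57BL/6 and received a diet with 220 ppm iron. The study describes tubule cells that had escaped Cre, so the knockout kidneys held receptor-positive nephron cells, and cells outside the nephron lineage were not targeted. Separate litters are not given in the labels, so p-values measure the spread between these samples.

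The proximal tubule takes up nearly all filtered amino acids. Apical carriers import them, either coupled to sodium or by exchange, and basolateral carriers release them toward the blood. Several carriers work only as heterodimers. A light subunit of the Slc7 family carries out transport, while a heavy subunit, Slc3a1 at the apical membrane or Slc3a2 at the basolateral membrane, brings it to the surface. The Slc6 carriers of neutral amino acids need collectrin, encoded by Tmem27, for their surface expression in the kidney. Inherited loss of Slc3a1 or Slc7a9 function causes cystinuria, of Slc6a19 Hartnup disorder, of Slc1a1 dicarboxylic aminoaciduria and of Slc7a7 lysinuric protein intolerance.

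The sequences before Slc3a1 and Slc7a9 are shown because the genes encode the heavy and light subunits of the same cystine transporter. RefSeq promoter sequences (GRCm38.p6) were placed by exact match in mm9, and bases past the start of the mm9 gene model were left out. Capitals mark a match to the binding letters of HNF4, a transcription factor of the proximal tubule. The Slc3a1 stretch is chr17:85427437-85427686 on the plus strand (250 bases) and the Slc7a9 stretch is chr7:36233861-36234055 on the plus strand (195 bases).
Slc3a1: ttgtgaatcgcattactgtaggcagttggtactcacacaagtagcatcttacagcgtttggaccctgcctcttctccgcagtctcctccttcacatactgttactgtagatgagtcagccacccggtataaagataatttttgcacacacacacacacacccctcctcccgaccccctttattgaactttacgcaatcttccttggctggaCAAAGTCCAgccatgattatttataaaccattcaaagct
Slc7a9: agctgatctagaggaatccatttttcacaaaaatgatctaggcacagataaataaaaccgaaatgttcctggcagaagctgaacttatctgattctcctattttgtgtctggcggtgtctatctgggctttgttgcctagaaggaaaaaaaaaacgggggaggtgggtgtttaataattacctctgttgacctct

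In the Slc3a1 stretch the capitals are the HNF4 motif CAAAGTCCA, from 39 to 31 bases before the RefSeq start. The Slc7a9 stretch holds no match to these letters. Both strands were searched, with no mismatch allowed. Windows of 250 bases before RefSeq starts were found for 8 of the 10 transporters, and Slc7a13 and Slc6a18 had no entry. The motif was present for 1 of 8 (Slc3a1) and for 0.451% of 27025 genes with a promoter in the table. The transcript of Hnf4a itself did not pass the test (log2 fold change -0.24, DESeq2 adjusted p 0.693). Without Control replicate 3 it was lower (log2 fold change -0.56, DESeq2 adjusted p 0.0236). The letter match is a description and was not tested as a binding site.

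Setting knockout against Control kidneys asked how the amino acid carriers stood in kidneys whose nephron lineage was targeted for receptor loss. In the knockout kidneys 6 of the 10 transcripts were lower and 0 were higher, at an adjusted p under 0.05 (DESeq2 Wald test, adjusted by Benjamini-Hochberg over 16509 genes). Among all genes tested, 7.18% were lower and 7.74% were higher by that call. The lower transcripts were Slc7a13, Slc6a20b, Slc7a7, Slc7a9, Slc6a19 and Slc1a1, and all 6 also changed by at least 2-fold, a call that 4.46% of all genes met in that direction. The edgeR quasi-likelihood test, which made fewer calls, had 4 of the 10 lower (Slc7a13, Slc6a20b, Slc7a7 and Slc7a9) against 2.80% of genes, and 0 higher against 3.22%. In the DESeq2, edgeR and limma-voom fits, 0 members were higher at an unadjusted p under 0.05. The median log2 fold change was -1.23 over the 10 genes and 0.007 over all genes tested. By role, 2 of 3 apical exchanger subunits, 3 of 4 apical sodium-coupled carriers and 1 of 3 basolateral carriers were lower by DESeq2. With edgeR these counts were 2 of 3, 1 of 4 and 1 of 3. In bulk RNA, fewer cells of a type and less RNA per cell cannot be told apart.

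Control replicate 3 stood apart from the other Control libraries for these genes. It was the lowest Control library for 10 of 10 transporters, at 26.6% (Slc7a13) to 82.2% (Slc7a9) of the mean of replicates 1 and 2. The same library was the lowest Control for 20 of 20 proximal tubule reference genes, a list of uptake, transport and metabolic genes of this segment, with a median of 49.8% of that mean. Across all genes tested it was the lowest in 43.9%, with a median of 99.5%. Library totals ran from 16591156 to 22898008 counts, and Control replicate 3 had the smallest total. Without that library 8 of the 10 transporters were lower, the added genes being Slc7a8 and Slc16a10. In that fit 8 of the 20 reference genes were lower, against 3 with all libraries. The share of all genes lower in that fit was not computed, so the count has no baseline here. Why Control replicate 3 stood apart was not tested.

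**Figure D1:**
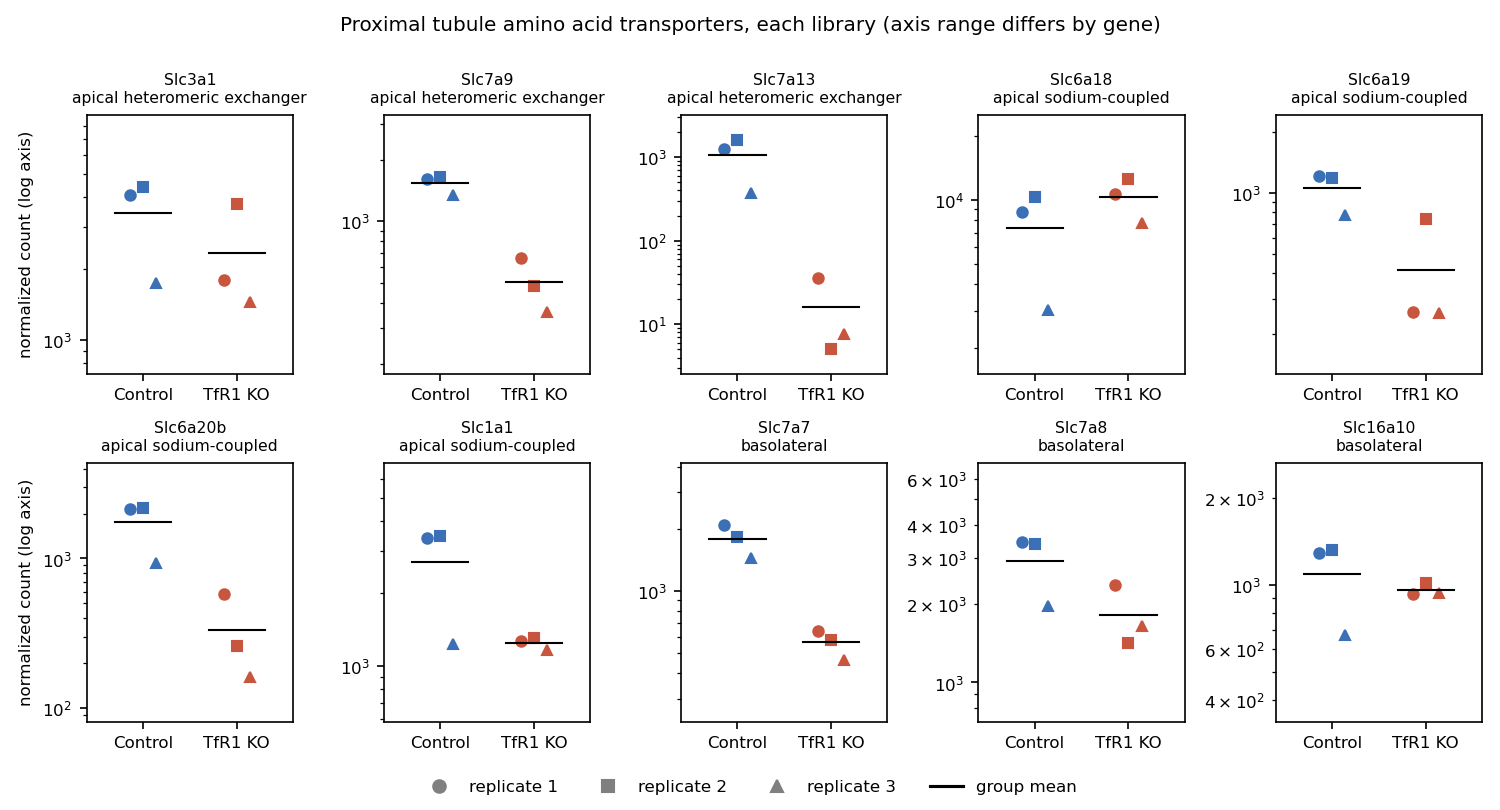
Normalized counts of the 10 transporters in each library, on log axes whose range differs by gene. Blue points are Control and red points TfR1 knockout libraries, marker shapes are replicates and black lines are group means; the groups do not overlap for Slc7a9, Slc7a13, Slc6a19, Slc6a20b and Slc7a7.

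Among the apical exchanger subunits, the light subunits were lower while the change of the heavy subunit did not pass the test. Slc7a13 (chr4:19745872-19769365, plus strand, mm9 as for all positions) encodes an acidic amino acid and cystine carrier that pairs with the Slc3a1 product in the late proximal tubule. Replicates 1 to 3 had 1237, 1592 and 376 normalized counts in Control kidneys and 35.8, 5.12 and 7.57 in knockout kidneys, an order of replicates kept for the values that follow. The groups were far apart, although the spread was wide in both, and Slc7a13 had the largest fold change of the 10 transporters. The mean was 1068 ± 625 in Control and 16.2 ± 17.1 in knockout kidneys (SD, n = 3 each), a 65.8-fold lower level (log2 fold change -6.04, SE 1.00, DESeq2 adjusted p 9.22e-08). The edgeR adjusted p was 0.0107. The raw knockout counts were 36, 4 and 8, so the size of the fold rests on few reads, and without TfR1 knockout replicate 1 the log2 value was -7.37.

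Slc7a9 (chr7:36234056-36251055, plus strand) encodes the light subunit of the cystine and dibasic amino acid exchanger. Its normalized counts were 1606, 1654 and 1340 in the Control libraries and 665, 486 and 360 in the knockout libraries. The Control values were tight, and every knockout value was under every Control value. The level was 3.04-fold lower in knockout kidneys (log2 fold change -1.61, SE 0.26, DESeq2 adjusted p 7.53e-08, edgeR adjusted p 0.0124). Slc3a1 (chr17:85427687-85463583, plus strand), the heavy subunit, had 4079, 4433 and 1746 in Control and 1792, 3732 and 1444 in knockout libraries. Control replicate 3 lay among the knockout values, and TfR1 knockout replicate 2 lay near the higher Control values. The difference did not pass the test (log2 fold change -0.56, SE 0.44, DESeq2 adjusted p 0.428), and without TfR1 knockout replicate 2 it was -1.08 (adjusted p 0.0531). Slc3a1 shares 608 exon bases with Prepl on the opposite strand. The strand setting of the counting is not given in the sources used here, so reads of these bases cannot be assigned with certainty, and Prepl did not pass (adjusted p 0.88).

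Of the sodium-coupled apical carriers Slc6a20b, Slc6a19 and Slc1a1 were lower, and Slc6a18 did not pass. Slc6a20b (chr9:123502938-123541683, minus strand) belongs to the mouse pair of Slc6a20 genes, the family of the imino acid carrier. Its normalized counts were 2130, 2171 and 940 in Control and 580, 258 and 161 in knockout libraries. The groups did not overlap, with Control replicate 3 the lowest Control and TfR1 knockout replicate 1 the highest knockout value. Slc6a20b was 5.24-fold lower (log2 fold change -2.39, SE 0.48, DESeq2 adjusted p 2.68e-05, edgeR adjusted p 0.0408). Without TfR1 knockout replicate 1 the log2 value was -3.06. The neighbouring Slc6a20a shares 400 of the 3185 stretches of 100 bases in the Slc6a20b transcript, and the counting of unique reads leaves such stretches out. Slc6a20a had a lower level per kilobase of exon in Control kidneys (65.5 ± 30.2 against 317 ± 127, SD, n = 3 each) and its change did not pass (log2 fold change -0.22, adjusted p 0.80).

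Slc6a19 (chr13:73817193-73842313, minus strand) encodes the main sodium-coupled carrier of neutral amino acids. It had 1208, 1186 and 779 normalized counts in Control and 259, 739 and 256 in knockout libraries. TfR1 knockout replicate 2 was just under Control replicate 3, and the other knockout libraries were far lower. The change was 2.53-fold lower by DESeq2 (log2 fold change -1.34, SE 0.43, adjusted p 0.0181) and did not pass with edgeR (adjusted p 0.103), or in DESeq2 without Control replicate 1 or 2 or TfR1 knockout replicate 1 or 3. Without TfR1 knockout replicate 2 the log2 value was -2.04 (DESeq2 adjusted p 3.45e-12). Slc1a1 (chr19:28909539-28988450, plus strand), the carrier of glutamate and aspartate, had 3404, 3488 and 1236 in Control and 1274, 1306 and 1167 in knockout libraries. Its groups overlapped through Control replicate 3 alone, and the knockout libraries were close together. It was 2.17-fold lower by DESeq2 (log2 fold change -1.12, SE 0.37, adjusted p 0.0231), with an edgeR adjusted p of 0.106, and did not pass in DESeq2 without Control replicate 1 or 2 or TfR1 knockout replicate 2 or 3. Slc1a1 shares 185 exon bases with 4430402I18Rik on the opposite strand, which did not pass (adjusted p 0.882).

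Slc6a18 (chr13:73799198-73815471, minus strand) encodes a carrier of small neutral amino acids and lies 1721 bases from Slc6a19. Its normalized counts were 8765, 10301 and 3028 in Control and 10638, 12510 and 7730 in knockout libraries. Its groups overlapped through Control replicates 1 and 2, and it was the only one of the 10 with a positive log2 fold change under this scaling. The difference did not pass (log2 fold change 0.48, SE 0.42, DESeq2 adjusted p 0.48, edgeR adjusted p 0.51). Without Control replicate 3 the log2 value was 0.11.

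At the basolateral membrane Slc7a7 was lower, and the other carriers did not pass the test. Slc7a7 (chr14:54989128-55032856, minus strand) encodes the light subunit through which dibasic amino acids leave the cell. It had 2076, 1821 and 1451 normalized counts in Control and 643, 582 and 465 in knockout libraries. Both groups were tight and well separated, and its adjusted p was the smallest of the 10 transporters. Slc7a7 was 3.16-fold lower (log2 fold change -1.66, SE 0.22, DESeq2 adjusted p 1.23e-11, edgeR adjusted p 0.00511). It shares 226 exon bases with Oxa1l on the opposite strand, which did not pass (adjusted p 0.482).

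Slc7a8 (chr14:55341053-55400723, minus strand), a light subunit that exchanges neutral amino acids, had 3438, 3369 and 1957 in Control and 2362, 1414 and 1642 in knockout libraries. The groups overlapped through Control replicate 3 and TfR1 knockout replicate 1, and the change did not pass (log2 fold change -0.69, SE 0.30, DESeq2 adjusted p 0.102, edgeR adjusted p 0.161). It passed without Control replicate 3 (adjusted p 0.00605) and without TfR1 knockout replicate 1. Slc16a10 (chr10:39753341-39862062, minus strand), which lets aromatic amino acids leave the cell without exchange, had 1290, 1321 and 670 in Control and 931, 1015 and 938 in knockout libraries. All knockout values lay inside the Control range, and the log2 fold change was -0.19 (SE 0.29, DESeq2 adjusted p 0.726). Without Control replicate 3 it was -0.44 and passed (adjusted p 0.0363). Over the 10 transporters, 5 had groups that did not overlap with the knockout lower, against 16.9% of all genes tested.

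Of the partner subunits Tmem27 was lower, and the change of Slc3a2 did not pass. Slc3a2, the basolateral heavy subunit, had 4184, 3818 and 2351 normalized counts in Control and 4552, 4263 and 4303 in knockout libraries. Every knockout value was above every Control value, but the change did not pass (log2 fold change 0.34, SE 0.25, DESeq2 adjusted p 0.384). Tmem27 had 11006, 12066 and 9523 in Control and 5928, 5913 and 3764 in knockout libraries. Its groups were well separated, and it was 2.09-fold lower (log2 fold change -1.06, SE 0.23, DESeq2 adjusted p 1.69e-04, edgeR adjusted p 0.0352).

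Ratios within a library, taken on counts per kilobase of annotated exons, do not depend on the scaling between libraries. Slc7a13 per Slc3a1 was 0.327, 0.387 and 0.232 in Control and 0.0215, 0.00148 and 0.00565 in knockout libraries, so the light subunit was lower relative to its heavy subunit in every knockout library. Slc7a9 per Slc3a1 was 0.343, 0.325 and 0.668 in Control and 0.323, 0.113 and 0.217 in knockout libraries. The last pair of groups only just separated, since TfR1 knockout replicate 1 fell at 0.323 and Control replicate 2 at 0.325. Slc7a7 per Slc3a2 was 0.647, 0.621 and 0.804 in Control and 0.184, 0.178 and 0.141 in knockout libraries. Slc7a8 per Slc3a2 was 0.603, 0.647 and 0.611 in Control and 0.381, 0.243 and 0.28 in knockout libraries. Both basolateral light subunits thus stood lower against the shared heavy subunit in whole-kidney RNA. Slc3a2 itself was above every Control value in every knockout library, which also lowers these ratios. By its own counts Slc7a8 did not pass (DESeq2 adjusted p 0.102), and which cells held Slc3a2 was not resolved. Slc7a7 also stood lower against Slc7a8, at 1.12 ± 0.183 in Control and 0.573 ± 0.138 in knockout kidneys (SD, n = 3 each).

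Ratios with Slc6a18, the neighbour of Slc6a19, were higher in knockout libraries. Slc6a18 per Slc6a19 was 8.25, 9.87 and 4.42 in Control and 46.8, 19.2 and 34.3 in knockout libraries, with no overlap. Slc6a18 per Tmem27 was 0.279, 0.299 and 0.111 in Control and 0.629, 0.742 and 0.72 in knockout libraries. In contrast, Slc6a19 per Tmem27 overlapped, at 0.0298 ± 0.00433 in Control and 0.0243 ± 0.0129 in knockout kidneys. Slc6a20b per Slc6a20a was 4.96, 4.5 and 5.47 in Control and 2.62, 0.592 and 0.576 in knockout libraries. Of 9 ratios compared, 8 did not overlap and had a p of 0.1 in an exact two-sided permutation test, the smallest that 3 against 3 libraries allow (0.113 after adjustment over the 9). The ratio that overlapped was Slc6a19 per Tmem27 (exact permutation p 0.5). No ratio could therefore pass 0.05 in this design. Every ratio holds a gene whose own normalized counts did not overlap between groups, so the ratios are not separate results. The share of all gene pairs without overlap was not computed.

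**Figure D2:**
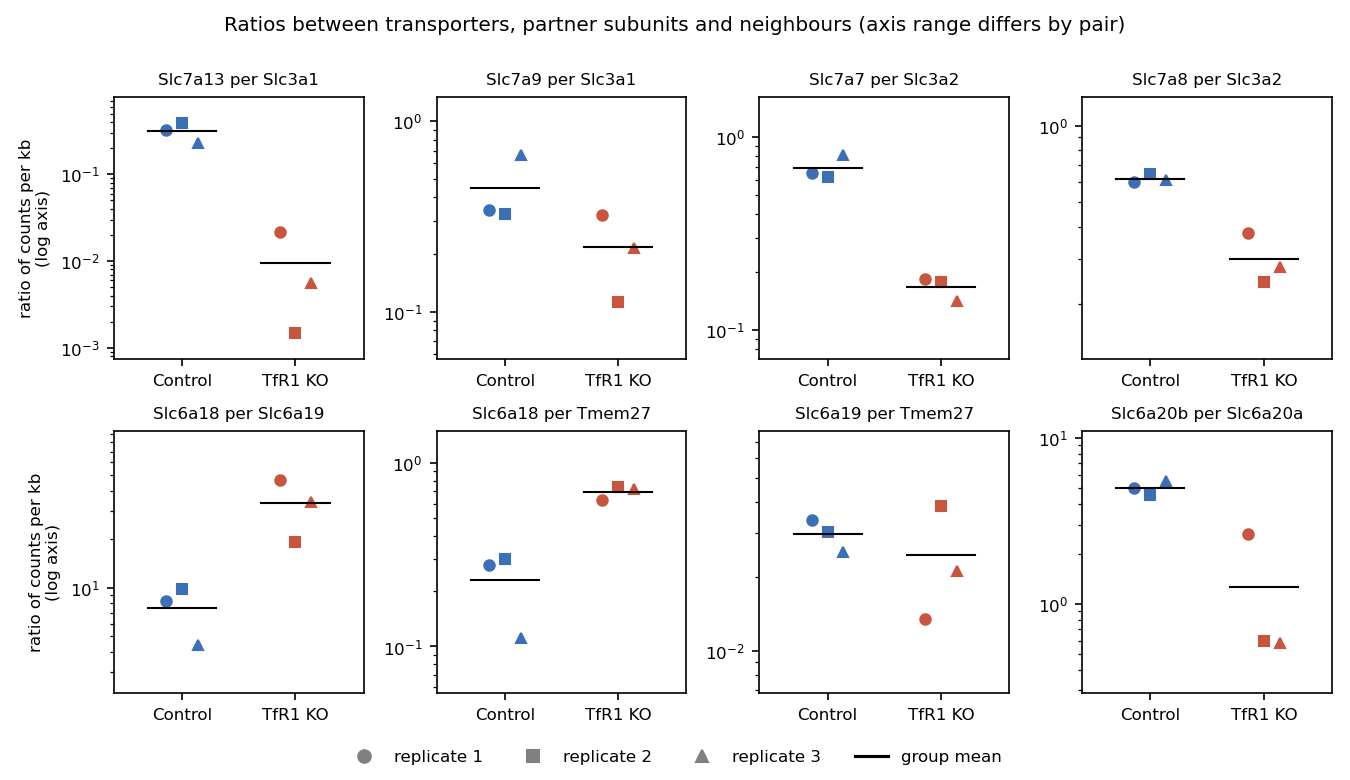
Ratios of counts per kilobase of exon between pairs of genes in each library, on log axes whose range differs by pair. Blue points are Control and red points TfR1 knockout libraries, marker shapes are replicates and black lines are group means; Slc6a19 per Tmem27 overlaps between groups and the other 7 plotted pairs do not.

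Levels were ordered on normalized counts per kilobase of exon. In Control kidneys Slc6a18 (1672 ± 870) and Slc3a1 (1482 ± 633) were highest, followed by Slc7a7 (785 ± 138), Slc7a8 (724 ± 207) and Slc7a9 (578 ± 63.8), all SD with n = 3. Slc7a13 (499 ± 292), Slc1a1 (439 ± 207), Slc6a20b (317 ± 127), Slc6a19 (211 ± 48.2) and Slc16a10 (178 ± 59.8) came next. The ranges of all neighbours in this Control order overlapped, so the order of adjacent genes is not resolved. In knockout kidneys the order was Slc6a18 (2337 ± 547), Slc3a1 (1007 ± 534), Slc7a8 (448 ± 123), Slc7a7 (248 ± 39.8), Slc1a1 (202 ± 11.8) and Slc7a9 (190 ± 57.8). It ended with Slc16a10 (156 ± 7.54), Slc6a19 (83.5 ± 55.6), Slc6a20b (60.3 ± 39.7) and Slc7a13 (7.55 ± 7.96). There, the ranges of the neighbours from Slc6a18 to Slc7a7 were separate, as were those of Slc16a10 and Slc6a19 and those of Slc6a20b and Slc7a13, and the other neighbours overlapped.

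The make-up of the carrier pool differed between the groups. Slc6a18 held 24.6%, 27% and 17.7% of the per-kilobase sum of the 10 transporters in Control libraries and 49.9%, 48.8% and 49.4% in knockout libraries. Slc7a13 held 7.13%, 8.57% and 4.52% in Control and 0.345%, 0.0411% and 0.0994% in knockout libraries. Slc3a1 held 21.2% ± 1.46 in Control and 20.5% ± 6.38 in knockout kidneys, with overlap. Shares of 5 genes were lower without overlap (Slc7a9, Slc7a13, Slc6a19, Slc6a20b and Slc7a7) and shares of 2 were higher without overlap (Slc6a18 and Slc16a10). For Slc16a10 the groups only just separated, at 2.8% in Control replicate 3 and 2.84% in TfR1 knockout replicate 2. The 5 lower genes are the same whose normalized counts did not overlap, so their shares add no separate result. A share rises when other members fall, so these shares are descriptions and were given no test. Together the 10 transporters took 1548, 1624 and 757 CPM (counts scaled to a fixed library total) in Control and 996, 985 and 749 in knockout libraries. These sums of all 10 overlapped between groups. Slc6a18 was the only member with a positive log2 fold change, so leaving it out favours separation, and the next sum is a description only. Without Slc6a18 the sum was 1084, 1090 and 588 in Control and 444, 426 and 341 in knockout libraries.

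**Figure D3:**
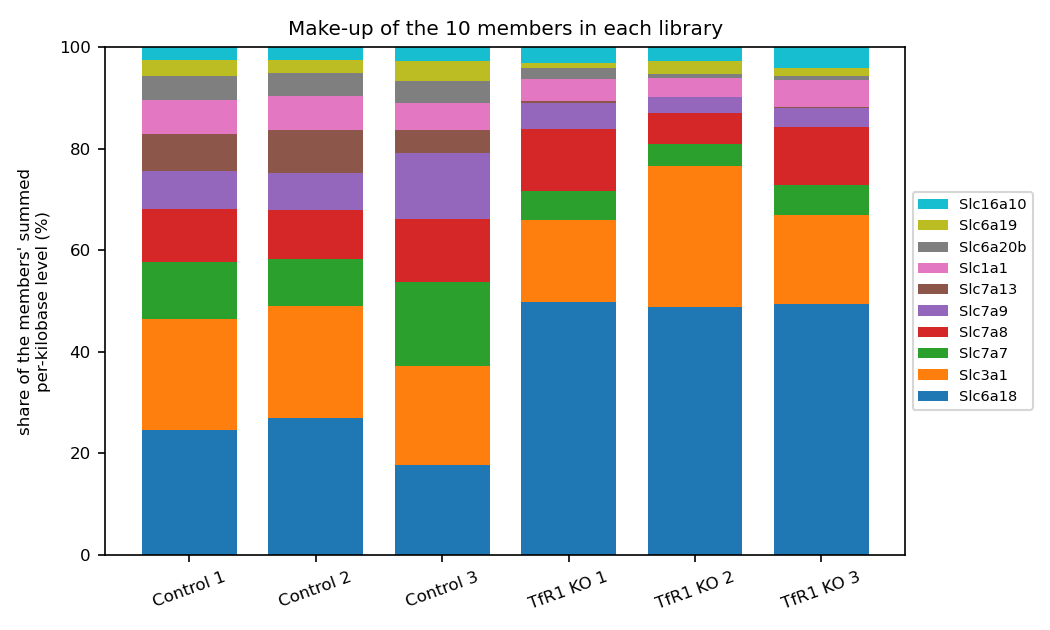
Share of each transporter in the summed normalized counts per kilobase of the 10 members, as a percentage, in each of the 6 libraries. Slc6a18 (bottom) takes 17.7% to 27% of the Control sums and 48.8% to 49.9% of the knockout sums, and Slc7a13 (brown) is hardly visible in the knockout bars.

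Most reference genes of the proximal tubule did not pass the test. Of 20, 3 were lower (Lrp2, Aqp1 and Gatm), 2 were higher (Pck1 and Slc22a6) and 15 did not pass, with a median log2 fold change of -0.30. Of all genes tested, 7.18% were lower and 7.74% higher by DESeq2. The edgeR test had 0 of the 20 lower and the same 2 higher, against 2.80% and 3.22% of all genes. In DESeq2 without Control replicate 3, 8 were lower and 2 higher, and without TfR1 knockout replicate 1, 5 were lower and 5 higher. Their summed normalized counts ran from 188581 to 347142 in Control and from 278742 to 490372 in knockout libraries. Of 5 genes that lean to the early segments, 2 were lower and 1 higher (median -0.83), and of 6 that lean to the late segment, 2 were lower and 0 higher (median -1.0). With edgeR, 1 was lower in each list and 1 higher in the early list. Slc34a1, Gatm and Slc22a6 of the early list are also reference genes. Slc7a12 of the late list is also among the other amino acid transporters counted below. When the size factors were taken from the 20 reference genes, the median of all genes rose by 0.226 on the log2 scale. The share of all genes called lower under that scaling was not computed. With it, 4 transporters were still lower. These were Slc7a13 (log2 fold change -5.61, DESeq2 adjusted p 1.17e-18), Slc6a20b (-2.07, adjusted p 3.02e-04), Slc7a7 (-1.40, adjusted p 0.0122) and Slc7a9 (-1.38, adjusted p 0.0213). Slc6a19 (-1.08, adjusted p 0.237), Slc1a1 (-0.68, adjusted p 0.449) and the partner Tmem27 (-0.84, adjusted p 0.31) no longer passed. Slc16a10 changed sign to 0.19, and Slc6a18 stood at 0.91 (adjusted p 0.196).

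**Figure D4:**
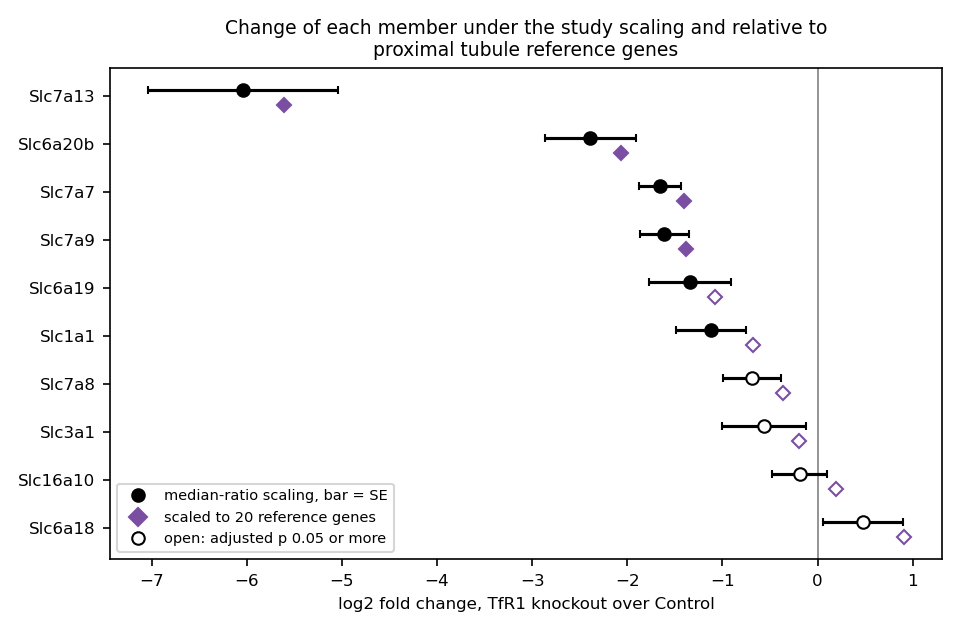
Log2 fold change, TfR1 knockout over Control, of the 10 transporters. Black circles with SE bars use the scaling over all genes and purple diamonds the scaling to 20 proximal tubule reference genes, with open symbols where the adjusted p was 0.05 or more; 6 black and 4 purple symbols are filled.

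Other gene groups moved in the same kidneys, and their part in the transporter values was not tested. Markers of the thick ascending limb (5 of 5) and the distal convoluted tubule (3 of 3) were lower. Markers of tubule injury (4 of 5, summed counts 4041 to 5437 against 999 to 1438 in Control) and of macrophages (4 of 6, 4996 to 7538 against 2201 to 3441) were higher. Collecting duct markers were higher for 3 of 6 and lower for 1, podocyte markers higher for 1 of 5, stromal markers lower for 1 of 5 and proliferation genes lower for 3 of 4. None of 5 endothelial markers passed, and 1 of 4 erythroid genes was tested and did not pass. These counts are from DESeq2, where 7.18% of all genes tested were lower and 7.74% higher. With edgeR, 4 thick limb, 3 distal convoluted tubule, 3 proliferation, 1 collecting duct and 0 stromal genes were lower. Injury and macrophage markers were higher for 3 each by edgeR, and collecting duct and podocyte markers for 1 each. The targeted gene Tfrc did not pass in whole kidney (log2 fold change 0.11, adjusted p 0.853), which does not check the labels, since the gene's count was not split by exon here.

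Y-linked genes were high in 1 Control and 2 knockout libraries, so the sexes were not balanced. The female transcript Xist had 78.2 normalized counts in Control replicate 2, and 145 and 1031 in TfR1 knockout replicates 1 and 3. The other libraries had 16704 to 27153. Ddx3y, a Y-linked gene, was at 10.8 in Control replicate 3, so not every library sorted cleanly by sex. The reason was not tested. Within the libraries high and low in Y-linked genes, the log2 difference was -1.72 and -1.60 for Slc7a7, -1.69 and -1.60 for Slc7a9, -2.55 and -2.57 for Slc6a20b and -6.20 and -7.30 for Slc7a13. These genes were lower in both sets. The values were further apart, relative to their size, for Slc6a19 (-2.20 and -0.43), Slc3a1 (-1.45 and 0.36), Slc6a18 (-0.17 and 1.09) and Slc16a10 (-0.50 and 0.05). Slc1a1 stood at -1.51 and -0.83, and Slc7a8 at -0.75 and -0.93. The high set held 1 Control and 2 knockout libraries and the low set 2 Control and 1 knockout library, so these differences were given no test. With the Y-linked level as a covariate, the same 6 transporters were lower.

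The other amino acid transporters and partner subunits split in both directions. Of 45 such genes, 42 were given an adjusted p, 6 were lower, 11 were higher and 25 did not pass, with a median log2 fold change of -0.13. Among all genes tested, DESeq2 called 7.18% lower and 7.74% higher. The edgeR test had 4 of these transporters lower and 6 higher, against 2.80% and 3.22% of all genes. DESeq2 had 7 of them higher without Control replicate 2 and 6 without TfR1 knockout replicate 3. Slc38a3, the basolateral glutamine carrier of the proximal tubule, rose most. It had 413, 523 and 227 normalized counts in Control and 10100, 13248 and 9341 in knockout libraries. The groups were far apart, and the level was 28.1-fold higher (log2 fold change 4.81, SE 0.32, DESeq2 adjusted p 2.13e-48, edgeR adjusted p 0.0015). Slc6a15, a carrier of branched-chain amino acids and proline, had 801, 837 and 297 in Control and 26.8, 46.1 and 18 in knockout libraries (log2 fold change -4.43, DESeq2 adjusted p 3.17e-18). Slc6a12, the betaine carrier, had 269, 269 and 159 in Control and 30.8, 26.9 and 15.1 in knockout libraries (log2 fold change -3.27, adjusted p 6.70e-15). Both were without overlap between groups. The peptide carrier Slc15a2 was lower by DESeq2 (log2 fold change -1.06, adjusted p 0.0309) and did not pass with edgeR (adjusted p 0.113), or in DESeq2 when any library other than Control replicate 3 was left out.

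Importers known as targets of the stress factor Atf4, which responds to amino acid shortage and other stresses, were mostly higher. Of 9 listed, 8 were higher and 0 lower by DESeq2, 5 were higher by edgeR and 4 by limma-voom, and Slc3a2 did not pass. All 8 are among the 11 higher genes of the wider list above and are not a separate result. Among all genes tested, 7.74% were higher by DESeq2 and 3.22% by edgeR. In DESeq2 without Control replicate 2 or without TfR1 knockout replicate 3, 5 were higher (Slc1a4, Slc1a5, Slc6a9, Slc7a3 and Slc7a11). Their median log2 fold change was 1.17, and their summed normalized counts were 9303 to 11428 in Control and 16630 to 22685 in knockout libraries. Slc1a5, the glutamine importer, was at 1694 ± 385 in Control and 4486 ± 595 in knockout kidneys (SD, n = 3 each; log2 fold change 1.40, DESeq2 adjusted p 8.48e-08). Slc1a4, a carrier of small neutral amino acids, was at 219 ± 9.16 and 499 ± 96.1 (log2 fold change 1.19, adjusted p 2.09e-06). Slc6a9, a glycine importer, was at 257 ± 19.9 and 576 ± 98.8 (log2 fold change 1.17, adjusted p 2.59e-06). With size factors from the proximal tubule reference genes, 5 of the 9 importers were higher, among them Slc1a5, Slc1a4 and Slc6a9 at log2 fold changes of 1.71, 1.46 and 1.45, and Slc7a1, Slc7a5 and Slc38a2 no longer passed.

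**Figure D5:**
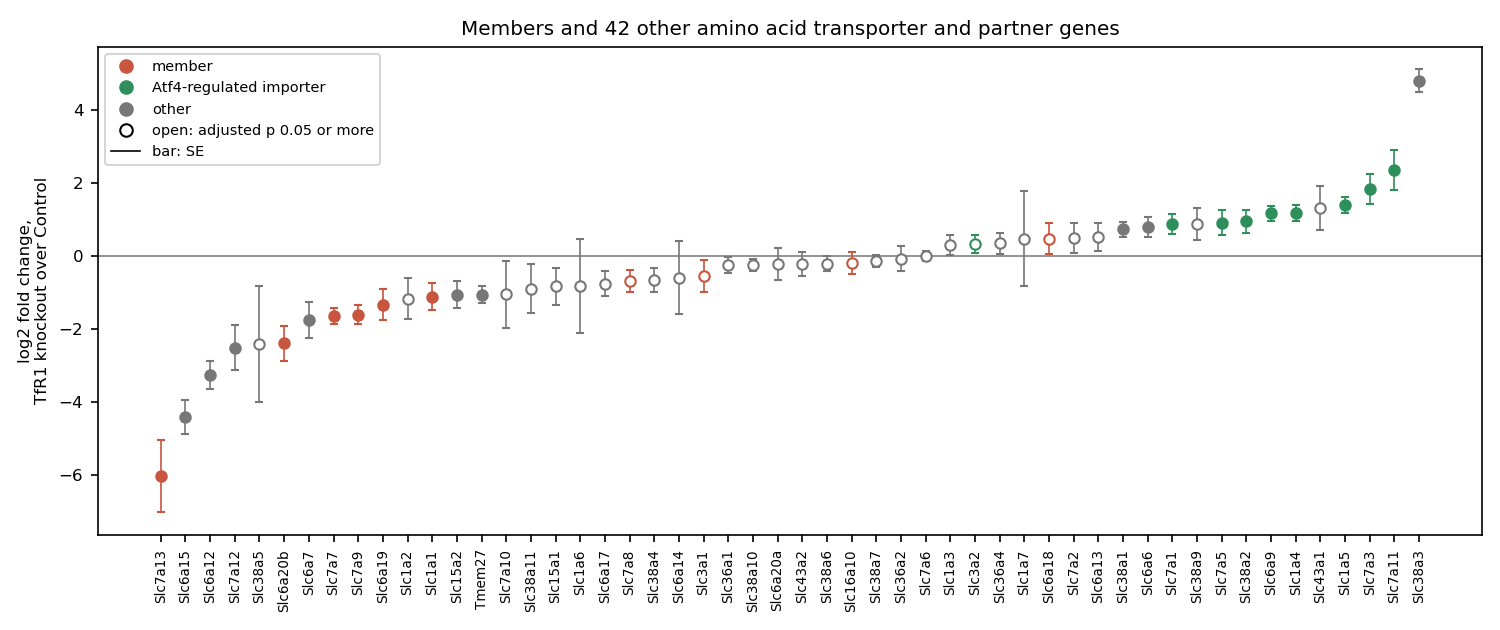
Log2 fold change with SE of the 10 transporters (red) and 42 other amino acid transporter and partner genes, ordered from lowest to highest. Green marks the Atf4-regulated importers and open symbols an adjusted p of 0.05 or more; no filled red symbol lies above 0, and 8 of the 9 green symbols are filled and lie above 0.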

How the data were processed

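Whole-kidney RNA libraries (3 Control, 3 TfR1 knockout, grouped by the labels) were sequenced as single-end reads of 100 bases. The authors trimmed reads with Trimmomatic, aligned them with TopHat2 2.0.11 to mm9 and deposited HTSeq counts of uniquely aligned reads for each gene, without normalization. Base calls came from CASAVA 1.8.2. Unique counting lowers genes with near-identical copies. Depth was 16591156 to 22898008 counts, and 3 libraries per group limit the precision.

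Here, DESeq2 1.42.0 in R 4.3.3 (Wald test, median-ratio size factors, Benjamini-Hochberg over all genes, independent filtering at 0.05, as the study names DESeq2, an adjusted p of 0.05 and 2-fold) was fitted to 6 libraries. Filtering left 16509 genes with a mean count of at least 3.51, and outlier filtering gave 29 genes no p. Normalized counts are counts divided by the size factor. Alternatives were edgeR 4.0.16 (quasi-likelihood, TMM), limma 3.58.1 with voom, total-count, upper-quartile and reference-gene size factors, other filters, a replicate block and each library left out. A Y-linked covariate was chosen after seeing the data. Code was tested on simulated data. The members and gene lists were chosen with earlier results of these data known. Beyond the members, partner subunits, Slc6a20a, Tfrc and Hnf4a, the named genes are the 4 lower and 4 higher of the other transporters with the largest fold among those past 0.05, averaging 100 or more normalized counts and without overlap. Some items set for the analysis are not reported here. Exon lengths and positions are from GENCODE for mm9 (NCBIM37).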

Additional observations from a re-analysis of the deposited data

How the results depend on the processing

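Slc7a9, Slc7a13, Slc6a20b and Slc7a7 were lower at an adjusted p under 0.05 in every fit run, and 0 transporters were higher in any. Slc6a19 and Slc1a1 lost the call with edgeR (adjusted p 0.103 and 0.106), limma-voom (0.0535 and 0.155) and size factors from proximal tubule reference genes. With each library left out in turn, 4 to 8 transporters were lower (4 to 6 by at least 2-fold), and the other transporters had 4 to 8 lower and 6 to 11 higher genes. The count was 4 when replicate 1 or 2 of Control or replicate 3 of TfR1 knockout was left out. The share of all genes called was computed only for the main DESeq2 fit and the edgeR fit, so counts from other fits have no such baseline. Of the other transporters, 3 were lower and 6 higher with reference-gene size factors, 6 higher with edgeR and 6 higher with limma-voom. Signs turned for Slc16a10 (0.19) and Slc6a20a (0.21) with reference-gene size factors and for Slc6a20a without Control replicate 2 (its left-out range was -0.55 to 0.04), and the cause was not tested. Deviations of same-numbered libraries from their group means correlated at -0.0378, 0.0548 and 0.0899, so no pairing by number was seen. With 3 libraries a group, these values cannot exclude shared litters or batches. With the replicate block 7 transporters were lower (5 by at least 2-fold), 0 higher, and the other transporters had 5 lower and 12 higher. With 3 libraries a group, a transporter that missed the threshold is not shown to be unchanged.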
